A study of Homo sapiens with 6 samples.

Results

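Respiratory complex I is described here through the 46 genes of its nuclear-encoded subunits and NDUFAF assembly factors, out of 58302 rows of a gene expression table. The members were the rows whose symbol is NDUFA, NDUFB, NDUFC, NDUFS, NDUFV or NDUFAF followed by a number, or NDUFAB1, with no use of their values. RNA sequencing compared DDX17_KO cells with control cells of MHCC97H, a human hepatocellular carcinoma line. DDX17_KO cells had been edited with CRISPR/Cas9 at DDX17, which encodes an RNA helicase, and the control line carried a non-target construct. Both lines were grown in DMEM with 10% fetal bovine serum, and each group held 3 libraries of total RNA. The labels do not say whether either line came from 1 clone, nor whether the libraries of a group came from separate cultures. The p-values therefore measure the spread between these libraries, which may be technical.

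Complex I, the NADH:ubiquinone oxidoreductase of the inner mitochondrial membrane, passes electrons from NADH to ubiquinone and pumps protons. Its N module oxidises NADH, its Q module reduces ubiquinone, and its proximal and distal membrane arms carry the proton channels. A core conserved from bacteria is joined by many supernumerary subunits. The hydrophobic core of the membrane arm is encoded by the mitochondrial genome and all other subunits by nuclear genes, and assembly factors build the enzyme without staying in it.

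The targeted gene, DDX17, lay lower in all 3 DDX17_KO libraries than in any control. It stood at 22.4, 7.64 and 19.1 FPKM (fragments per kilobase of transcript, scaled to the depth of the library) in DDX17_KO replicates 1, 2 and 3, and at 45.7, 41.4 and 43.9 FPKM in control replicates 1, 2 and 3. Its log2 fold change was -1.48, with p = 0.1 by exact permutation (two-sided), the smallest p possible for 3 libraries a group. Adjusted over all genes, limma gave 0.282, and 0.0334 once DDX17_KO replicate 2 was left out (0.0334 to 0.790 in 20 other settings). Estimated depths were 5350000 to 10620000 fragments in DDX17_KO and 12330000 to 14550000 in controls, with DDX17_KO replicate 2 the shallowest. In both groups the library numbered 2 stood apart by GC content: across all genes tested, Spearman's rho between GC content and the deviation from the group mean was 0.51 in DDX17_KO replicate 2 and 0.57 in control replicate 2, against -0.52 to -0.31 in the other 4 libraries. Of 8 hepatocyte and liver cancer marker genes, ALB, AFP and HNF4A among them, 0 reached a mean of 0.5 FPKM over the 6 libraries, while the epithelial keratin genes KRT8 and KRT18 averaged 121 and 188 FPKM in DDX17_KO and 103 and 207 FPKM in controls. The other epithelial markers listed, KRT19 and EPCAM, averaged 0.0147 and 0.0146 FPKM in DDX17_KO and 0.267 and 0.120 FPKM in controls. In both, every DDX17_KO library lay below every control. The summed hepatocyte markers ran from 0.0126 to 0.0406 FPKM in DDX17_KO and from 0.714 to 0.865 FPKM in controls. A list of 9 markers of other cell types summed to 6.37 to 11.6 FPKM in DDX17_KO and 52.7 to 59.0 FPKM in controls. Nearly all of the DDX17_KO sums was the collagen gene COL1A1. It had 7.04, 11.5 and 6.11 FPKM in DDX17_KO replicates 1, 2 and 3 and 12.4, 15.7 and 12.7 FPKM in control replicates 1, 2 and 3. The globin genes HBB and HBA2 stood at 0 in each DDX17_KO library. COL1A2 and the leukocyte genes PTPRC and CD3E were at or near 0 throughout. The part of these marker genes in the values below was not tested.

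No complex I gene passed the test between DDX17_KO and control. The test was limma on log2(FPKM + 1) over 15620 genes whose mean over the 6 libraries reached 0.5 FPKM, with a threshold of 0.05 on the adjusted p. Of the 46 members, 44 entered it. Among them 0 were called lower, against 0.0384% of all genes tested, and 0 higher, against 0.0%. The smallest adjusted p of a member was 0.357. At an unadjusted p under 0.05 there were 2 members, 4.55% of the 44, against 13.5% of all genes. Both lay lower, where 7.19% of all genes did, and 0 lay higher, against 6.31%. Of the 10653 protein-coding genes tested, 950 lay lower and 381 higher at that threshold. With the replicate number as a block, 7 members lay under that unadjusted threshold, 15.9% against 28.6% of all genes, 6 of them lower (13.4% of all genes) and 1 higher (15.1%), and again 0 passed the adjusted one. The log2 fold changes of the members ran from -0.61 to 0.43, and the 95% confidence interval of 43 of the 44 lay within 1 log2 unit of 0 on either side. The exception was NDUFB7. In bulk RNA, fewer cells of a kind and less RNA per cell cannot be told apart.

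**Figure D1:**
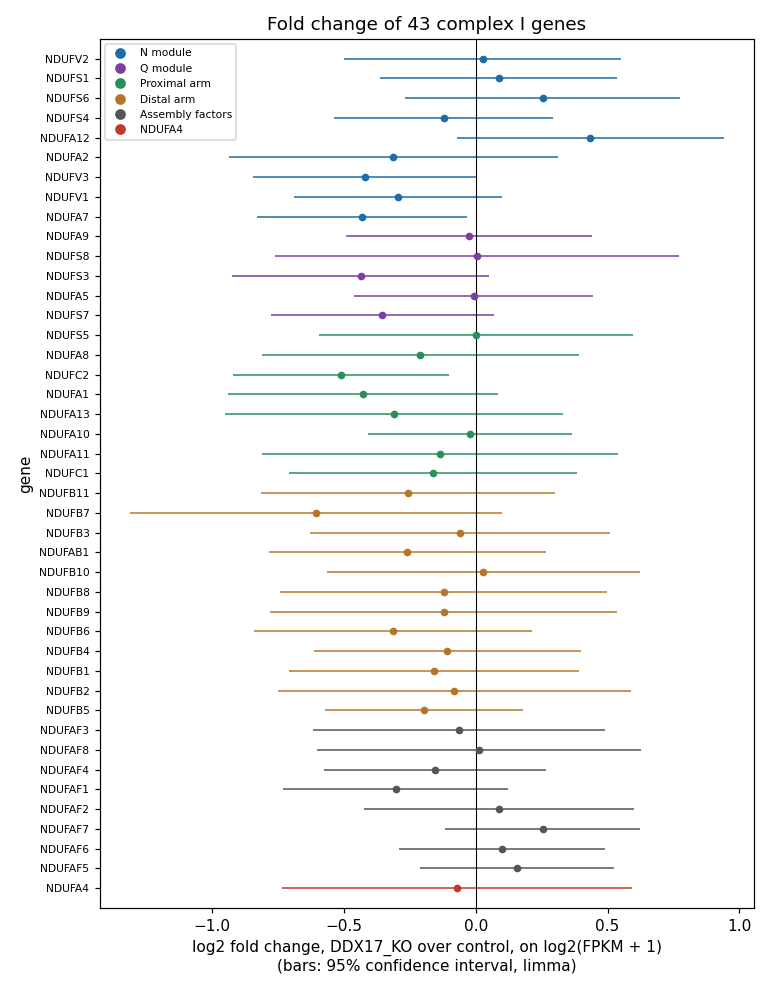
Log2 fold change of 43 complex I genes, DDX17_KO over control, on log2(FPKM + 1); each point is a gene coloured by its part of the enzyme and each bar its 95% confidence interval from limma over 3 libraries a group. Fold changes run from -0.61 for NDUFB7 to 0.43 for NDUFA12, and in the distal arm 11 of 12 points lie below 0.

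Most fold changes of subunits lay slightly below 0, and those of the assembly factors lay around 0. Of the 44 tested members, 32 had a log2 fold change below 0, 72.7% against 52.5% of all genes tested, and their median was -0.12 against -0.03 over all genes. Among the protein-coding genes tested, 6299 of 10653 lay below 0, with a median of -0.09. In the N module 5 of 9 tested genes lay below 0 with a median of -0.12, and in the Q module 5 of 6 with a median of -0.17. In the proximal membrane arm 7 of 8 lay below 0 with a median of -0.19, and in the distal arm 11 of 12 with a median of -0.14. Of the 8 assembly factors only 3 lay below 0, and their median was 0.05. These medians are small beside the interval of any single gene, and the differences between parts were not tested.

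FPKM levels of the members spanned a wide range. The highest mean over the 6 libraries was 113 times the lowest among the 44 tested genes, on the per-length FPKM scale. NDUFS5, a supernumerary subunit facing the intermembrane space, was the highest, with 90.8, 162 and 93.5 FPKM in DDX17_KO replicates 1, 2 and 3 and 109, 117 and 107 FPKM in control replicates 1, 2 and 3. NDUFB11, an X-linked subunit of the distal arm, had 89.5, 129 and 78.3 FPKM in DDX17_KO and 104, 134 and 111 FPKM in controls. In both genes the groups overlapped, and DDX17_KO replicate 2 was the highest DDX17_KO library. At the low end was the core gene NDUFS7. Of the 44, 4 averaged over 50 FPKM, 13 lay between 10 and 50 FPKM, 25 between 2 and 10 FPKM and 2 under 2 FPKM. Those 4, NDUFS5, NDUFB11, NDUFB7 and NDUFA8, had 1 or 2 annotated transcripts, while NDUFS7 had 20. NDUFA1, with 1 annotated transcript, averaged 19.9 FPKM. For genes with several transcripts the length behind a value is not known, and its part in this range was not tested.

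**Figure D2:**
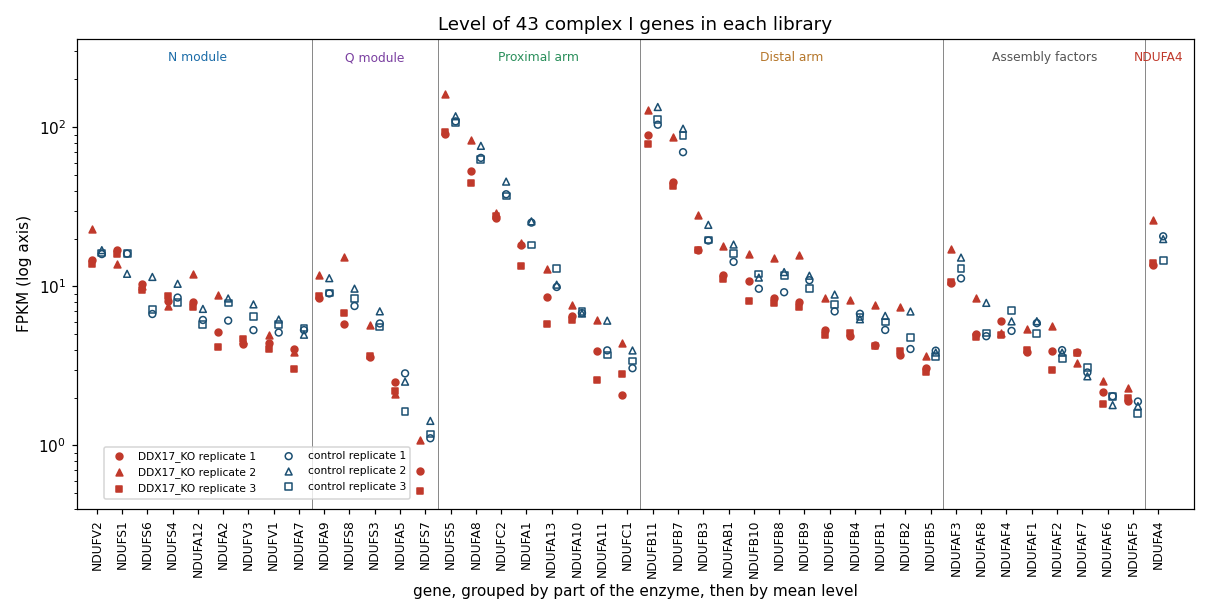
FPKM of 43 complex I genes on a log axis, grouped by part of the enzyme and ordered by mean level; filled red symbols are the 3 DDX17_KO libraries and open blue symbols the 3 control libraries, with the marker shape giving the replicate number. NDUFS5 and NDUFB11 stand highest, NDUFS7 lowest, and in most genes the DDX17_KO triangle, replicate 2, lies above the other DDX17_KO symbols.

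NDUFA3 and NDUFA6 lay below the filter on low values. NDUFA3, a small subunit of the proximal arm, was listed at 0 in each of the 6 libraries. NDUFA6, a subunit of the matrix arm, had 0.190, 0.126 and 0.246 FPKM in DDX17_KO replicates 1, 2 and 3 and 0.0818, 0.0968 and 0.208 FPKM in control replicates 1, 2 and 3. At its median transcript length, 3 fragments make from 0.239 to 0.474 FPKM in the DDX17_KO libraries and from 0.174 to 0.206 FPKM in the controls. At that length its values make 2.39, 0.796 and 2.39 fragments in DDX17_KO and 1.19, 1.59 and 3.58 in controls. These are not whole numbers, so another length lies behind its values and this floor is uncertain. The other subunits of the enzyme were expressed, and a value at or near 0 in this kind of file can be a failed estimate, so no change is read from them.

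Of the 7 nuclear core subunits, 0 passed and 4 had a fold change below 0. NDUFV1, which holds the NADH site and the flavin, had 4.39, 4.97 and 4.02 FPKM in DDX17_KO replicates 1, 2 and 3 and 5.13, 6.19 and 5.77 FPKM in control replicates 1, 2 and 3. NDUFS7, which carries the last iron-sulfur cluster before ubiquinone, had 0.694, 1.08 and 0.517 FPKM in DDX17_KO and 1.11, 1.43 and 1.18 FPKM in controls. These were the 2 core genes in which each DDX17_KO library lay below each control. The log2 fold change of NDUFV1 was -0.30 (standard error 0.17, limma adjusted p = 0.424). That of NDUFS7 was -0.35 (standard error 0.18, limma adjusted p = 0.396). Both genes are rich in GC, and after a correction of each library for GC content and transcript length the log2 fold change was -0.02 for NDUFV1 and for NDUFS7 alike. NDUFS7 also depended on the pseudocount, with -0.75 at a pseudocount of 0.01.

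In the other core genes described the groups overlapped. NDUFS3, a Q module subunit, had 3.61, 5.70 and 3.67 FPKM in DDX17_KO and 5.84, 6.97 and 5.56 FPKM in controls, a log2 fold change of -0.44 with a standard error of 0.21, and of -0.27 after the GC and length correction. NDUFS8, an iron-sulfur subunit of the Q module, had 5.81, 15.2 and 6.77 FPKM in DDX17_KO and 7.53, 9.68 and 8.34 FPKM in controls. In NDUFS3 and NDUFS8 DDX17_KO replicates 1 and 3 were the low DDX17_KO libraries. Replicate 2 stood among the controls for NDUFS3 and above all of them for NDUFS8. In the N module, NDUFV2 had 14.7, 22.9 and 13.7 FPKM in DDX17_KO and 16.0, 16.9 and 16.2 FPKM in controls. NDUFS1, the largest subunit and a carrier of iron-sulfur clusters, had 16.9, 13.9 and 15.9 FPKM in DDX17_KO and 16.1, 11.997 and 16.0 FPKM in controls, a log2 fold change of 0.09 with an interval from -0.36 to 0.54. NDUFS1 was the core gene in which both libraries numbered 2 were the lowest of their group. The processed pseudogene NDUFV2P1 averaged 8.79 FPKM over the 6 libraries, so the division of fragments between it and NDUFV2 is uncertain.

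Supernumerary subunits held the smallest p-values of the family. NDUFC2 (ENSG00000151366, hg38 chromosome 11, 78068304 to 78080219), a subunit of the proximal arm, had 27.0, 28.7 and 27.5 FPKM in DDX17_KO replicates 1, 2 and 3 and 38.0, 45.6 and 37.0 FPKM in control replicates 1, 2 and 3. Levels in DDX17_KO lay close together and below every control. Its means were 27.8 ± 0.888 FPKM in DDX17_KO and 40.2 ± 4.69 FPKM in controls (SD, n = 3 each), and its log2 fold change was -0.51 (95% confidence interval -0.92 to -0.10, limma adjusted p = 0.357). The 20 other settings gave it adjusted p-values of 0.0508 to 0.790. A read-through gene on the same strand, NDUFC2-KCTD14, held 0.53, 1.05 and 0.53 FPKM in DDX17_KO and 0.50, 0.89 and 0.30 FPKM in controls.

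NDUFA7 and NDUFV3 of the N module also had all DDX17_KO libraries below all controls. NDUFA7 (ENSG00000267855, chromosome 19, 8308768 to 8321396) had 4.04, 3.89 and 3.02 FPKM in DDX17_KO and 5.31, 4.97 and 5.48 FPKM in controls, a log2 fold change of -0.43 (limma adjusted p = 0.369). Its locus is shared with AC010323.1, a gene on the same strand that stood at 2.43, 18.7 and 3.57 FPKM in DDX17_KO and 0.14, 7.44 and 3.32 FPKM in controls. The division of fragments between NDUFA7 and AC010323.1 is therefore uncertain, and the GC and length correction gave NDUFA7 a log2 fold change of -0.25. NDUFV3 (ENSG00000160194, chromosome 21, 42879644 to 42913304) had 4.36, 4.60 and 4.69 FPKM in DDX17_KO and 5.31, 7.71 and 6.43 FPKM in controls, a log2 fold change of -0.42 (limma adjusted p = 0.369). NDUFB5 of the distal arm, chosen after its values were seen, had 3.08, 3.63 and 2.90 FPKM in DDX17_KO and 3.94, 3.84 and 3.64 FPKM in controls. With NDUFV1 and NDUFS7 these make 6 members, 13.6%, in which every DDX17_KO library lay below every control, against 12.6% of all genes tested. The share of the family is thus close to that of all genes. Among the protein-coding genes tested, 1721 of 10653 lay below in the same way.

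NDUFB7 had the largest fold change of the tested members and a wide spread. NDUFB7 (ENSG00000099795, chromosome 19, 14566078 to 14572062), a distal arm subunit facing the intermembrane space, had 45.4, 87.0 and 42.8 FPKM in DDX17_KO and 69.8, 98.1 and 88.9 FPKM in controls. DDX17_KO replicates 1 and 3 lay below every control, and replicate 2 lay among the controls. NDUFB7 had a log2 fold change of -0.61 (standard error 0.30, limma adjusted p = 0.391). The GC and length correction gave -0.31 for this GC-rich gene (limma adjusted p = 0.438). Without both libraries numbered 2 and without that correction it was -0.82 (limma adjusted p = 0.0482, and 0.0482 to 0.810 over the 20 other settings), the only call of a member in any of those settings. In that setting 2.27% of the members and 3.3% of all genes were called lower, and 0 members and 5.51% of all genes higher. NDUFA1, an X-linked subunit of the proximal arm, had 18.2, 18.8 and 13.5 FPKM in DDX17_KO and 25.2, 25.6 and 18.2 FPKM in controls, so that the groups overlapped. NDUFB6 of the distal arm had 5.32, 8.45 and 4.96 FPKM in DDX17_KO and 6.96, 8.88 and 7.69 FPKM in controls, also with overlap.

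NDUFA12, an N module subunit related in sequence to the assembly factor NDUFAF2, had its 3 DDX17_KO libraries above all controls. It had 7.95, 11.97 and 7.45 FPKM in DDX17_KO and 6.15, 7.22 and 5.77 FPKM in controls. Its log2 fold change was 0.43 (standard error 0.22, limma adjusted p = 0.391). Without DDX17_KO replicate 2, the highest library, the log2 fold change was 0.24, and with the GC and length correction it was 0.27. NDUFA12, NDUFAF5 and NDUFAF7 were the 3 members, 6.82%, in which every DDX17_KO library lay above every control, against 8.09% of all genes tested. Among the protein-coding genes tested, 391 of 10653 lay so, a smaller share.

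The promoter windows are shown for 4 genes whose groups did not overlap and that had a window in the table used: the 3 lower in DDX17_KO with the smallest p and NDUFA12, the higher one with the smallest p. The windows come from RefSeq (GRCh38.p14) and run from 250 bases before to 50 bases after the transcript start, written 5′ to 3′ on the gene's strand. They lie at chr19:8321326-8321625 (minus strand) for NDUFA7, chr21:42893059-42893358 (plus strand) for NDUFV3, chr19:1383657-1383956 (plus strand) for NDUFS7 and chr12:95003648-95003947 (minus strand) for NDUFA12. Capitals mark matches, on either strand, to short core letters of factors known for respiratory gene promoters: GCATGCG for NRF1, CCGGAAG for the ETS factors that include GABP, ATGGCGG for YY1 and GGGCGG for the GC box bound by SP1.
NDUFA7: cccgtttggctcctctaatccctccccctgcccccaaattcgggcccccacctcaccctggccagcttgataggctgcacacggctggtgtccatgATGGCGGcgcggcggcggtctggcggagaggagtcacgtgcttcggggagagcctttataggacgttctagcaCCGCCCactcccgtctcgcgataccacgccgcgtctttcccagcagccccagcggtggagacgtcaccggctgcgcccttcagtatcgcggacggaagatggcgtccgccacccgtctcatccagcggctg
NDUFV3: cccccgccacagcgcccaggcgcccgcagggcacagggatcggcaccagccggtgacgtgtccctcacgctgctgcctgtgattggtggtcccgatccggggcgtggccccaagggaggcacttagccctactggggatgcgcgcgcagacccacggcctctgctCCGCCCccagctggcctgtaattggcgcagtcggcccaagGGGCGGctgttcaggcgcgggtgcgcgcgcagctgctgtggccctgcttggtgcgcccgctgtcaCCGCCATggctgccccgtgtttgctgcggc
NDUFS7: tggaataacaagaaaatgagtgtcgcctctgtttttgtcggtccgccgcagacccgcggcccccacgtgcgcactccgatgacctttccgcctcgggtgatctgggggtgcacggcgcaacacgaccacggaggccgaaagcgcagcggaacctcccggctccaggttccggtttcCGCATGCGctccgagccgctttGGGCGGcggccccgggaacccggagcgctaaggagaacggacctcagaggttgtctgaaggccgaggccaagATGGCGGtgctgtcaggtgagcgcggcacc
NDUFA12: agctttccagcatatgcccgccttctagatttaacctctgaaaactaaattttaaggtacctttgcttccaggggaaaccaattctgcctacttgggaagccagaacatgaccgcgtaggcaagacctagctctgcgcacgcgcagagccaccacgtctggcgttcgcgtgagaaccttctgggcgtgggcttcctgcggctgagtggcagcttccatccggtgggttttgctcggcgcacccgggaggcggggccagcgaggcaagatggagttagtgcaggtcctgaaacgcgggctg

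In the windows printed, NDUFS7 held matches to the NRF1, YY1 and GC box letters. NDUFA7 and NDUFV3 held matches to the YY1 and GC box letters, and NDUFA12 to none of the 4. The windows not printed break this contrast. NDUFV1, also lower in each DDX17_KO library, held none of the 4. Both NDUFAF7 and NDUFAF5 were higher in each DDX17_KO library. Of the 4, NDUFAF7 held the YY1 letters only and NDUFAF5 the NRF1 letters only. Of the 46 members 39 had a window, and NDUFA4, NDUFAF6, NDUFB5, NDUFB9, NDUFC2 and NDUFS5 were among those with none. The YY1 letters stood in 14 of the 39, 35.9%, against 5.55% of all 35116 windows and 6.99% of the 22199 windows of protein-coding genes. These letters also spell a start codon and the bases after it, and the windows reach past the transcript start. The NRF1 letters stood in 7 of the 39, 17.9%, against 3.91% of all windows and 4.63% of protein-coding ones. The ETS letters stood in 6, 15.4%, against 10.3% and 12.8%, and the GC box letters in 22, 56.4%, against 45.0% and 56.3%. A match is a description of letters, not of binding.

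YY1 itself, a transcription factor gene, lay lower in each DDX17_KO library than in any control, and so did PPARGC1B, which encodes a coactivator of respiratory genes. YY1 had 15.8, 12.1 and 17.0 FPKM in DDX17_KO replicates 1, 2 and 3 and 21.1, 22.7 and 20.3 FPKM in control replicates 1, 2 and 3, a log2 fold change of -0.50 (limma adjusted p = 0.369). PPARGC1B had 2.24, 2.61 and 2.12 FPKM in DDX17_KO and 3.45, 4.04 and 3.65 FPKM in controls, a log2 fold change of -0.51 (limma adjusted p = 0.349). With all libraries 0 of the 11 regulator genes listed passed the threshold. Of the 11, 7 had a fold change below 0 and 4 above 0, and YY1 and PPARGC1B had the smallest p-values. Every DDX17_KO library lay below every control in 2 of the 11 and above in 1. The shares of all genes tested were 12.6% below and 8.09% above. A link between these genes and the promoter letters was not tested. The GC and length correction gave PPARGC1B a log2 fold change of -0.25. Among the others, chosen after their values were seen, PPARGC1A, a coactivator related to PPARGC1B, had 0.54 (limma adjusted p = 0.372). GABPB1, which encodes a subunit of the ETS factor GABP, had 0.28 (limma adjusted p = 0.453), with every DDX17_KO library above every control. NRF1 had -0.28 (limma adjusted p = 0.481), with groups that overlapped. POLRMT, the mitochondrial RNA polymerase gene, had -0.66 (limma adjusted p = 0.402). Without DDX17_KO replicate 2 it fell by 1.06 on the log2 scale (limma adjusted p = 0.0425, and 0.0354 to 0.813 over the 20 other settings).

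The assembly factors showed no common direction, and 0 of 8 passed. NDUFAF7, a mitochondrial methyltransferase, had 3.87, 3.28 and 3.80 FPKM in DDX17_KO replicates 1, 2 and 3 and 2.88, 2.72 and 3.09 FPKM in control replicates 1, 2 and 3, a log2 fold change of 0.25 (limma adjusted p = 0.451). NDUFAF5, which hydroxylates NDUFS7, had 1.91, 2.31 and 1.98 FPKM in DDX17_KO and 1.89, 1.77 and 1.59 FPKM in controls, a log2 fold change of 0.16 (limma adjusted p = 0.613). In both genes the groups were separate by a small margin, and the GC and length correction gave 0.14 for NDUFAF7 and -0.07 for NDUFAF5. NDUFAF1, part of the complex that builds the proximal arm, had 3.89, 5.36 and 3.99 FPKM in DDX17_KO and 5.88, 6.04 and 5.04 FPKM in controls. NDUFAF1 had the lowest log2 fold change of the factors, -0.30 (limma adjusted p = 0.438).

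For the remaining factors the groups overlapped. NDUFAF2, a chaperone of late assembly, had 3.91, 5.68 and 2.99 FPKM in DDX17_KO and 3.97, 3.83 and 3.51 FPKM in controls. NDUFAF3, which acts on the Q module with NDUFAF4, had 10.5, 17.2 and 10.6 FPKM in DDX17_KO and 11.2, 15.2 and 13.0 FPKM in controls. NDUFAF4 had 6.07, 5.06 and 4.98 FPKM in DDX17_KO and 5.25, 6.02 and 7.04 FPKM in controls. In NDUFAF2 and NDUFAF3 the highest of all 6 libraries was DDX17_KO replicate 2, and in NDUFAF4 it was control replicate 3. NDUFAF6, needed early in assembly, had 2.16, 2.56 and 1.81 FPKM in DDX17_KO and 2.04, 1.79 and 2.04 FPKM in controls. NDUFAF8, the partner of NDUFAF5, had 4.99, 8.42 and 4.77 FPKM in DDX17_KO and 4.86, 7.88 and 5.10 FPKM in controls. In NDUFAF8 the library numbered 2 was the highest in both groups. Among 12 assembly factors outside the NDUFAF series, 9 lay below 0 and 0 passed, with TMEM186 at 6.51 ± 1.29 FPKM in DDX17_KO and 8.99 ± 1.71 FPKM in controls (SD, n = 3 each). DMAC2, an assembly factor of the distal membrane arm, had 2.21 ± 0.196 FPKM in DDX17_KO and 3.08 ± 0.773 FPKM in controls. TMEM186 had a log2 fold change of -0.41 (limma adjusted p = 0.395), and DMAC2 one of -0.33 (limma adjusted p = 0.424). After the GC and length correction they were -0.26 for TMEM186 and -0.10 for DMAC2.

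On the FPKM scale most members were low in DDX17_KO replicates 1 and 3 and high in DDX17_KO replicate 2. Summed over the 46 genes, the level was 579, 888 and 544 FPKM in DDX17_KO replicates 1, 2 and 3 and 699, 836 and 724 FPKM in control replicates 1, 2 and 3. The FPKM total of all genes tested was also highest in DDX17_KO replicate 2. As a share of that total, computed after the values were seen, the tested members made up 0.221%, 0.242% and 0.209% in DDX17_KO replicates 1, 2 and 3 and 0.248%, 0.264% and 0.237% in control replicates 1, 2 and 3. The sum of DDX17_KO replicate 2 thus lay above the controls, but its share lay among them. DDX17_KO replicate 1 was below every control in 31 of the 44 tested members, 70.5% against 40.2% of all genes, and DDX17_KO replicate 3 in 36, 81.8% against 41.5%. Both were below every control in 31 members, 70.5% against 32.6%, and both above in 3, 6.82% against 28.2%. Singly, DDX17_KO replicate 1 was above every control in 5 members, 11.4% against 36.1%, and DDX17_KO replicate 3 in 3, 6.82% against 35.9%. DDX17_KO replicate 2 was above every control in 25 members, 56.8% against 29.1% of all genes, and below every control in 8, 18.2% against 27.8%. It was the highest DDX17_KO library in 36 members, 81.8% against 46.7%, and control replicate 2 was the highest control in 30, 68.2% against 44.0%. The library numbered 2 was thus the highest of its group in most members, in DDX17_KO and in controls.

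**Figure D3:**
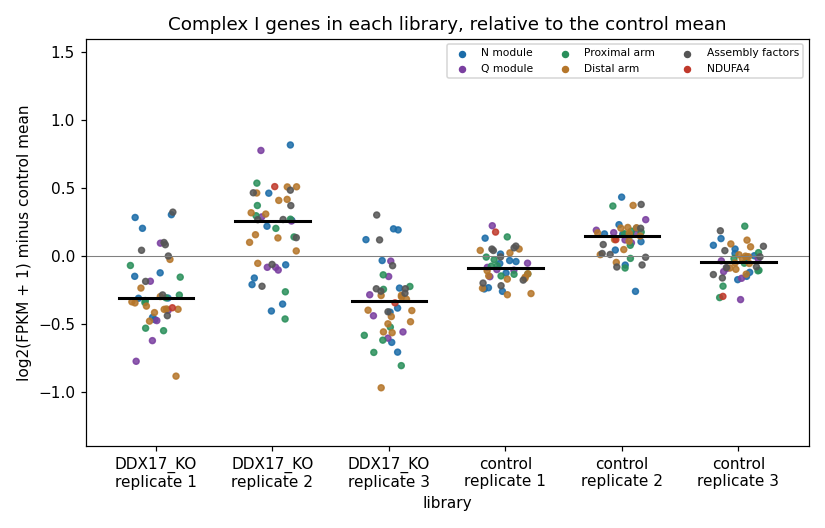
Difference of log2(FPKM + 1) from the control mean for 44 complex I genes in each of the 6 libraries; points are genes coloured by part of the enzyme and black lines are medians. The medians are -0.31, 0.26 and -0.33 in DDX17_KO replicates 1, 2 and 3 and -0.09, 0.15 and -0.04 in control replicates 1, 2 and 3.

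The family's median fold change rested on single libraries. It was -0.36 without DDX17_KO replicate 2, with 37 of 44 members below 0, 84.1% against 53.6% of all genes, and a median over all genes of -0.05. It was -0.03 without DDX17_KO replicate 1, with 23 members below 0, and -0.006 without DDX17_KO replicate 3, with 22. It was -0.06 without control replicate 2, with 27 members below 0. Without control replicate 1 it was -0.19, with 34 below 0, and without control replicate 3 -0.17, with 35. Without DDX17_KO replicate 2, 15 members had an unadjusted p under 0.05 and a lower level, 34.1% against 19.1% of all genes, and 0 a higher one, against 16.6%. Of the 44, 0 passed the adjusted threshold, against 1.72% called lower and 1.95% called higher of all genes. The smallest adjusted p of a member in that setting was 0.0504, that of NDUFB7. The median of the subunits was then -0.39 and that of the assembly factors -0.11. DDX17_KO replicate 2, left out here, held the least DDX17, at 7.64 FPKM against 22.4 and 19.1 FPKM in DDX17_KO replicates 1 and 3. A link between DDX17 level and these shifts was not tested.

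In several libraries the differences from the control mean ran with GC content. The median GC content of the annotated transcripts was 48.9% for the 44 members, and the median transcript length 659 bases against 855 bases for all genes tested. Across the 44 members, which share libraries and are no independent replicates, Spearman's rho between GC content and the difference from the control mean was -0.37, 0.02 and -0.54 in DDX17_KO replicates 1, 2 and 3. It was -0.54, 0.37 and 0.13 in control replicates 1, 2 and 3. Members rich in GC thus tended to be low in DDX17_KO replicates 1 and 3 and in control replicate 1. Between transcript length and the difference, rho was 0.06, -0.37 and 0.04 in DDX17_KO replicates 1, 2 and 3, so that longer members tended to be low in replicate 2. The part of GC content and length in the position of each library was not tested. In counts added after the data were seen, after the GC and length correction, DDX17_KO replicate 1 was below every control in 26 of 44 members, 59.1% against 37.0% of all genes, and above in 8, 18.2% against 35.3%. DDX17_KO replicate 3 was below every control in 34, 77.3% against 39.0%, and above in 5, 11.4% against 35.1%. DDX17_KO replicate 2 was above every control in 25, 56.8% against 36.3%, and below in 6, 13.6% against 29.3%.

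**Figure D4:**
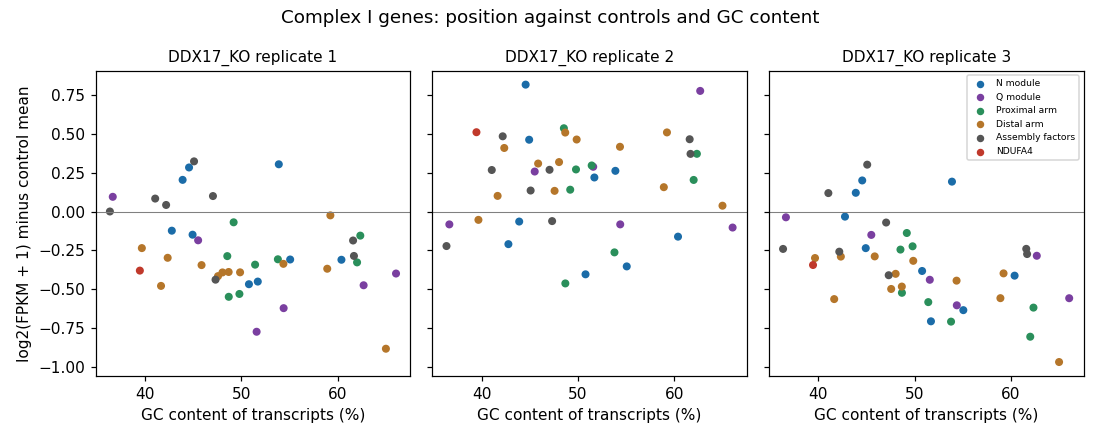
Difference of log2(FPKM + 1) from the control mean against the median GC content of annotated transcripts, for 44 complex I genes in each DDX17_KO library; points are coloured by part of the enzyme. Spearman's rho is -0.37, 0.02 and -0.54 in replicates 1, 2 and 3, and most points of replicate 2 lie above 0.

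Most mitochondrially encoded subunit genes lay above 0, unlike most nuclear ones, and their levels were far higher. The 7 genes summed to 22524, 27322 and 27472 FPKM in DDX17_KO replicates 1, 2 and 3. In control replicates 1, 2 and 3 the sums were 20913, 18689 and 21711 FPKM. On the FPKM scale every DDX17_KO sum thus lay above every control sum. The FPKM total of all genes tested was 262162, 367453 and 260580 in DDX17_KO and 281491, 316879 and 305225 in controls. It was highest in DDX17_KO replicate 2, and the share of the 7 genes in it was not computed. In 6 of 7 genes the log2 fold change was above 0, and the median of the 7 was 0.34. Without DDX17_KO replicate 2 it was 0.19, with 2 of 7 below 0. In single libraries the median difference from the control mean was -0.0058, 0.40 and 0.38 in DDX17_KO replicates 1, 2 and 3. With all libraries 0 of the 7 passed. MT-ND5 (hg38 mitochondrial genome, 12337 to 14148), a proton channel subunit, had 2921, 2120 and 3012 FPKM in DDX17_KO and 1548, 1560 and 1702 FPKM in controls, a log2 fold change of 0.73 (standard error 0.20, limma adjusted p = 0.314). MT-ND6 (14149 to 14673), the subunit gene on the opposite strand, had 731, 1123 and 819 FPKM in DDX17_KO and 1319, 1578 and 1309 FPKM in controls, a log2 fold change of -0.67 (standard error 0.22, limma adjusted p = 0.352). In both genes the groups did not overlap, in opposite directions.

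DDX17_KO replicate 2 was the DDX17_KO library nearest to the controls in both genes. When it was left out, MT-ND5 rose by 0.89 on the log2 scale (limma adjusted p = 0.0319) and MT-ND6 fell by 0.85 (limma adjusted p = 0.0441). Over the 20 other settings their adjusted p ran from 0.0319 to 0.790 for MT-ND5 and from 0.0441 to 0.790 for MT-ND6. The 2 genes lie next to each other on opposite strands, and the strand setting of the counting is not given in the sources used here, so fragments near their border cannot be told apart.

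**Figure D5:**
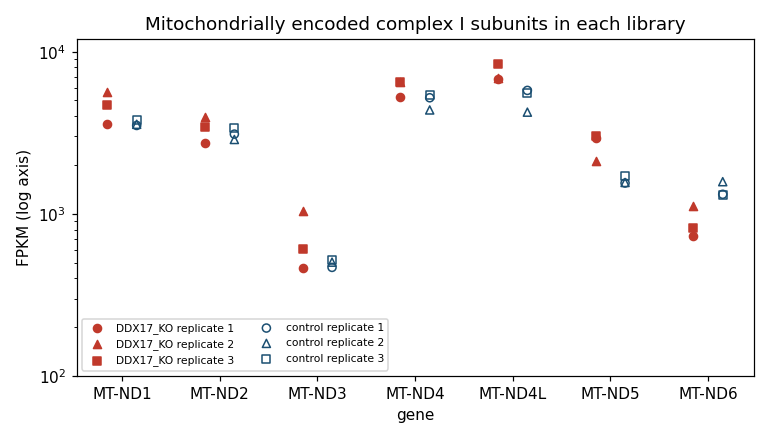
FPKM of the 7 mitochondrially encoded complex I subunits on a log axis; filled red symbols are the 3 DDX17_KO libraries and open blue symbols the 3 control libraries, with the marker shape giving the replicate number. MT-ND5 lies higher in each DDX17_KO library, at 2120 to 3012 FPKM against 1548 to 1702 FPKM in controls, and MT-ND6 lower, at 731 to 1123 FPKM against 1309 to 1578 FPKM.

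The nuclear genes of the other respiratory complexes also had medians below 0. The median log2 fold change was -0.26 over 4 complex II genes, -0.37 over 9 complex III genes, -0.21 over 10 complex IV genes and -0.13 over 15 complex V genes, against -0.12 over the complex I members. Without DDX17_KO replicate 2 these were -0.43, -0.66, -0.34 and -0.32 for complexes II, III, IV and V and -0.36 for complex I. The differences between complexes were not tested. With all libraries 0 genes of these 4 lists passed. SDHD, an anchor subunit of complex II, had 4.09, 4.62 and 4.10 FPKM in DDX17_KO replicates 1, 2 and 3 and 10.9, 13.3 and 9.35 FPKM in control replicates 1, 2 and 3. Its log2 fold change was -1.20 (standard error 0.19, limma adjusted p = 0.108). Without DDX17_KO replicate 2 it was -1.25 (limma adjusted p = 0.0338), with adjusted p-values of 0.0338 to 0.411 over the 20 other settings. The groups did not overlap, and the size of the fold change was above the 0.61 of NDUFB7. NDUFA4, which bears a complex I name and is now placed in complex IV, was counted among the 44, and its log2 fold change was -0.07 with groups that overlapped. The median of the other 43 was -0.12.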

How the data were processed

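RNA of 3 DDX17_KO and 3 control MHCC97H libraries was measured. FPKM, 1 value for each gene in each library, was what the authors deposited. StringTie, HISAT2, CASAVA 1.8, edgeR and hg38 are listed in the submitters' processing notes without their roles. Of annotation, strand setting and filters, the sources used here say nothing.

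The members and lists were chosen with earlier results of these data known. For genes with 1 annotated transcript (GENCODE 29, which held 58039 of the 58302 identifiers), FPKM times length fell on whole multiples of a step. Up to 20 fragments, 99.6% to 99.7% of values lay within 0.05 of a whole number, and the step gave the depth. For other genes fragments were reckoned at the median transcript length, which need not be the length behind their values. Floors of 3 fragments and intervals cover counting error or library spread only.

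R 4.3.3 and limma 3.58.1, with trend, gave two-sided tests of log2(FPKM + 1) for the 15620 genes averaging 0.5 FPKM or more, with Benjamini-Hochberg adjustment over all of them. This scale understates changes of low genes. Python 3.11.15 with pandas 2.3.3 read the table. DDX17 was also compared by an exact permutation test over 20 arrangements.

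Values in each library are given for core subunits, the assembly factors, the 12 members with the smallest p, the 3 with the highest mean, those below the filter, and up to 2 genes of other lists with the smallest p. NDUFB5 was added after its values were seen. The values of 1 tested member, which enters the counts and medians, are not reported here. The parts of the enzyme follow general knowledge of its structure.

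Deviations of same-numbered libraries from their group means correlated at 0.300, 0.546 and 0.214 across genes for replicates 1, 2 and 3, so the numbers were taken to pair libraries. This rests on the data and not on the labels. Control replicate 1 correlated at 0.329 with DDX17_KO replicate 3, above the 0.300 and 0.214 of same-numbered replicates 1 and 3. The data thus do not settle the pairing of replicates 1 and 3, on which the block setting rests. Alternatives were a replicate block, GC and length correction by splines with 4 degrees of freedom, pseudocounts of 0.1 and 0.01, other scalings and filters, limma without trend or robust, protein-coding genes only, and libraries left out.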

Additional observations from a re-analysis of the deposited data

How the results depend on the processing

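Over 20 other settings the count of members called higher stayed at 0 and the count called lower at 0, except for 1 (NDUFB7) without both libraries numbered 2. The median fold change of the members was below 0 in all 20, from -0.36 to -0.0060. With single libraries left out it ran from -0.36 to -0.0060, and it was -0.12 with the replicate number as a block, which changed no call. With single libraries left out, DDX17 ran from -1.76 to -1.04. It passed without DDX17_KO replicate 2 (-1.04), without both libraries numbered 2 (-1.08), and without DDX17_KO replicate 2 with the GC and length correction (-0.98), the last a setting added after seeing the data.

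Of the named genes followed over the settings, 11 turned sign in at least 1 setting. Most of them had fold changes near 0, but NDUFV1 (-0.30), NDUFB11 (-0.26) and NDUFAF5 (0.16) were also among them. Outside that count, NDUFA4 ran from -0.77 to 0.083 and NDUFB8 from -0.39 to 0.049 over the 20 other settings. With the GC and length correction, with or without the replicate block, the log2 fold change was -0.12 for NDUFAF2, 0.24 for NDUFAF3, -0.072 for NDUFAF5, 0.031 for NDUFB11, -0.066 for NDUFS1, -0.014 for NDUFS5 and -0.11 for NDUFV2. With that correction and without DDX17_KO replicate 2 it was -0.43 for NDUFAF2, 0.16 for NDUFAF3, -0.26 for NDUFAF5, -0.049 for NDUFAF6, -0.12 for NDUFS1, -0.25 for NDUFS5, 0.062 for NDUFV1 and -0.39 for NDUFV2. Without both libraries numbered 2 it was -0.10 for NDUFAF2, -0.026 for NDUFAF6, -0.024 for NDUFAF8, -0.23 for NDUFS5, -0.29 for NDUFS8 and -0.17 for NDUFV2. NDUFS8 was -0.0043 and -0.0055 with pseudocounts of 0.1 and 0.01. With single libraries left out the range was -0.11 to 0.26 for NDUFAF2, -0.28 to 0.049 for NDUFAF3, -0.21 to 0.20 for NDUFAF8, -0.043 to 0.16 for NDUFS1, -0.27 to 0.15 for NDUFS5, -0.38 to 0.25 for NDUFS8 and -0.19 to 0.16 for NDUFV2. The cause was not tested. Depth limits the low members. At median transcript lengths, the tested member with the fewest fragments in the shallowest library, NDUFS7, had about 6.07, and the median was about 33.0. Most members have several annotated transcripts, so these counts are uncertain.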

Other observations

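NDUF rows outside the complex I genes held further signal, chosen after their values were seen. Of 59 NDUF pseudogene rows, 5 reached the filter. NDUFB8P2, a processed copy of NDUFB8, had 12.8, 22.6 and 5.89 FPKM in DDX17_KO replicates 1, 2 and 3 and 29.1, 29.9 and 16.7 FPKM in control replicates 1, 2 and 3, with groups that overlapped and a limma adjusted p of 0.373. NDUFB8 itself had 8.50, 15.04 and 7.82 FPKM in DDX17_KO and 9.19, 12.3 and 11.8 FPKM in controls. The division of fragments between near-identical copies is uncertain. NDUFA5P11 had 4.12, 9.26 and 5.68 FPKM in DDX17_KO and 4.25, 5.66 and 2.00 FPKM in controls. NDUFA4L2, the paralogue of NDUFA4 known to respond to hypoxia, had 0.750, 0.190 and 0.207 FPKM in DDX17_KO and 0.0550, 0.0732 and 0.0699 FPKM in controls. It lay below the filter, and with no filter its limma adjusted p was 0.519. At its median transcript length its values make about 7.87, 1.00 and 1.67 fragments in DDX17_KO and 0.669, 1.00 and 1.00 in controls. Several of these are not whole numbers, so another length lies behind its values and the true counts are uncertain. No change is read from values this low. Of the 46 complex I genes, 28 overlapped the locus of another gene in the table, and 20 overlapped one with a mean of at least 0.5 FPKM.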
